A study of Mus musculus with 40 samples.

Results

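MHC class II molecules carry peptides from endosomes to the surface of antigen-presenting cells, where CD4 T cells read them. Their alpha and beta chains are loaded with the help of the invariant chain and the DM peptide editor, and their genes are switched on together by the transactivator CIITA, which docks on factors bound to a shared set of promoter boxes. Macrophages, dendritic cells and B cells of fat tissue are known to express them, and interferon gamma raises CIITA in macrophages.

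The genes described are 7 of this pathway, each with a probe on the arrays, H2-Aa, H2-Ab1, H2-Eb1, H2-DMa, H2-DMb1, Cd74 and Ciita, out of 29411 genes. They were chosen by gene symbol, and 12 probes measure them. H2-Aa, H2-Ab1 and Cd74 have more than 1 probe each. Each gene is read from whichever of its probes is brightest on average, and other probes are given where their mean difference over the pairs has another sign and at some single labels.

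The samples are subcutaneous stromal vascular cells of C57BL/6J mice. Mice were 3 to 4 weeks old at weaning, when the diets began. The low-fat control diet (LFC) gave 10% of calories as fat, and the high-fat, high-sucrose diet (HFC) gave 60%. HF5, HF20 and HF75 mice ate the high-fat diet with 5, 20 or 75 µg of Kal-1, a plant-based formulation in water. RNA was hybridised in 1 colour on Agilent mouse arrays. LFC and HFC have 11 arrays each, HF5 has 6, and HF20 and HF75 have 5 each. LFC and HFC were sampled at days 1, 6, 10 and 14, with day 14 sampled again as week 0, and at weeks 3, 6, 9, 12, 15 and 18 counted from there. HF5 was sampled from week 3 to week 18, and HF20 and HF75 from week 3 to week 15. Each diet has 1 array per time label, and how many mice each array stands for is not given. Another 2 arrays of week 18 carry conflicting labels and enter no group.

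Levels are log2 intensities minus the 75th percentile of the array. The 75th percentile intensity was 7.81 to 2161 on the LFC arrays (median 787), 160 to 1623 on HFC (median 778), 456 to 1448 on HF5 (median 703), 748 to 1793 on HF20 (median 1126) and 441 to 733 on HF75 (median 521).

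A pair of LFC arrays stands apart. On the LFC array of week 3, 17.2% of probes were well above background, and its rank correlation with other arrays had a median of 0.508. The LFC array labelled day 14 had 9104 of 43803 spots marked as outliers and a rank correlation of 0.401. On the other 36 arrays these correlations ran from 0.833 to 0.937, and 53.4% to 87.2% of probes were well above background. On the dim LFC array of week 3, H2-Aa, H2-Eb1, H2-DMa and Ciita did not clear background, and the array's lowest measurable level stands in for them as an upper bound. The HFC array of day 1 has a usual rank correlation, 0.872. By brightest probes it has the lowest level of all 38 arrays for H2-Aa, H2-Ab1, H2-DMa, H2-DMb1, Cd74 and Ciita. On a Cd74 probe less often saturated, the lowest level was in LFC (-0.05), and the lowest in HFC was 0.40. The LFC array of week 18 has a mean fibroblast marker level of -5.22, where the other LFC arrays lie at 2.91 or above, and an adipocyte marker level of -6.28.

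The labelled material was checked against marker genes. Of 9 macrophage genes 8 had a probe, and each cleared background on 35 or more of the 38 arrays. Emr1, which encodes F4/80, had a median level of 1.97, and Csf1r, the receptor of the macrophage growth factor, 1.22. Markers of B cells, T cells and dendritic cells were also present, some of them dim. B cell genes ranged from Cd79b, a part of the antigen receptor, well above background on 38 of 38 arrays (median level 0.61), to Pax5 on 20 (median -5.25) and Blk on 19 (median -4.28). Among T cell genes, Cd3d was well above background on all 38 and Cd4 on 33. Among dendritic genes, Zbtb46, a factor of conventional dendritic cells, was well above background on 37 arrays, and Flt3 on 28. Adipocyte and fibroblast genes were read as well. The median of the adipocyte list mean was 0.86 in HF5, 1.70 in HF75, 2.04 in LFC, 2.25 in HFC and 5.21 in HF20. Its LFC values ran from -6.28 to 6.08. Diet medians of the fibroblast list were 4.54 to 5.04, and those of the macrophage list 0.39 to 1.11. In bulk RNA, fewer cells of a type and less RNA per cell cannot be told apart.

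The classical chains come first. H2-Ab1, the beta chain of the I-A molecule, had LFC levels of 2.08 to 6.47 (median 5.21) and HFC levels of 0.27 to 6.75 (median 5.62). HF5 levels of H2-Ab1 were 4.11 to 6.65 (median 5.39). The lowest HFC array was day 1, the lowest LFC arrays were the pair that stand apart, and all diets overlapped. H2-Ab1 was saturated on the HFC arrays of weeks 3 and 6, so those levels are lower bounds. HF20 levels of H2-Ab1 were 6.18, 5.07, 5.12, 4.51 and 4.50 from week 3 to week 15. HF75 levels of H2-Ab1 were 6.46, 5.01, 6.11, 5.43 and 3.53. The week 3 array was the highest in both diets.

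H2-Aa encodes the alpha chain of I-A. Its LFC levels were -0.36 to 3.10 (median 1.80), its HFC levels -2.15 to 3.87 (median 2.06) and its HF5 levels 0.01 to 3.90 (median 2.30). HF20 levels of H2-Aa were 3.137, 1.964, 1.752, 1.499 and 1.101 from week 3 to week 15, and HF75 levels were 2.36, 0.99, 2.82, 2.08 and -0.71. HFC and HF5 were highest at week 3, and all diets overlapped. H2-Aa and H2-Ab1 levels went together over 36 arrays, without the LFC pair that stands apart (Pearson r = 0.93).

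H2-Eb1 encodes the beta chain of the I-E molecule, whose alpha chain gene is defective in C57BL/6 mice. Its levels were -5.37 to 1.62 in LFC (median -3.53), -4.55 to -1.41 in HFC (median -3.03) and -5.06 to -2.40 in HF5 (median -3.99). HF20 levels of H2-Eb1 were -2.47, -3.62, -1.76, -5.62 and -4.65 from week 3 to week 15, and HF75 levels were -3.03, -5.08, -2.22, -3.52 and -6.80. The LFC array labelled day 14 was the highest, and the HF75 array of week 15, the lowest, was not well above background. H2-Eb1 was not well above background on 3 of 38 arrays. Its Pearson correlation with the mean of the other members was 0.36, against 0.71 to 0.94 for the other 6 genes. By Spearman rho it was 0.56, against 0.62 to 0.90, so the gap depends on the coefficient.

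The DM editor swaps the invariant chain fragment for a peptide. H2-DMa, its alpha chain, had levels of -1.60 to 0.90 in LFC (median 0.21), -3.01 to 1.43 in HFC (median -0.04), and -1.19 to 1.06 in HF5 (median -0.15). From week 3 to week 15 H2-DMa was 0.77, -0.15, 0.22, -1.07 and -1.62 in HF20 and 0.51, -0.91, 1.25, 0.15 and -1.91 in HF75. H2-DMb1, one of a pair of beta chain genes, had levels of -0.59 to 4.27 in LFC (median 2.22), -2.68 to 3.51 in HFC (median 1.68), and 1.23 to 4.18 in HF5 (median 2.12). HF20 levels of H2-DMb1 were 3.94, 1.55, 2.88, 0.68 and -2.29, and HF75 levels 2.73, 2.37, 3.85, 3.58 and 1.68. Diets overlapped for both genes. The HFC array of day 1 was the lowest array for both.

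Cd74 encodes the invariant chain, which fills the groove until the endosome. Its brightest probe was saturated on 27 of 38 arrays, so its levels mostly set a lower limit. They were 3.95 to 8.98 in LFC (median 6.17), 2.26 to 7.36 in HFC (median 6.28), and 5.45 to 6.79 in HF5 (median 6.30). HF20 levels of Cd74 were 6.45, 5.15, 5.51, 5.70 and 5.75 from week 3 to week 15, and HF75 levels 6.91, 6.74, 7.19, 7.21 and 5.57. All diets overlapped, and saturation leaves the order of the high arrays unknown. A second Cd74 probe was saturated on 4 arrays, and its correlation with the brightest probe was 0.63 over 36 arrays, while the third probe had 0.99. Mean differences of Cd74 between diets and periods are therefore given for both of these probes.

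Ciita encodes the transactivator of all these genes. Its levels were -2.31 to 1.53 in LFC (median -0.29), -4.66 to 2.72 in HFC (median -0.25) and -1.89 to 2.09 in HF5 (median -0.15). HF20 levels of Ciita were 2.69, -2.32, -1.28, -2.62 and -1.08 from week 3 to week 15, and HF75 levels were 2.34, -0.34, 1.48, 0.25 and -2.39. The HFC arrays of days 1, 6 and 10 were lower than the LFC arrays of those days, and the week 3 array was the highest in HFC, HF5, HF20 and HF75.

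**Figure D1:**
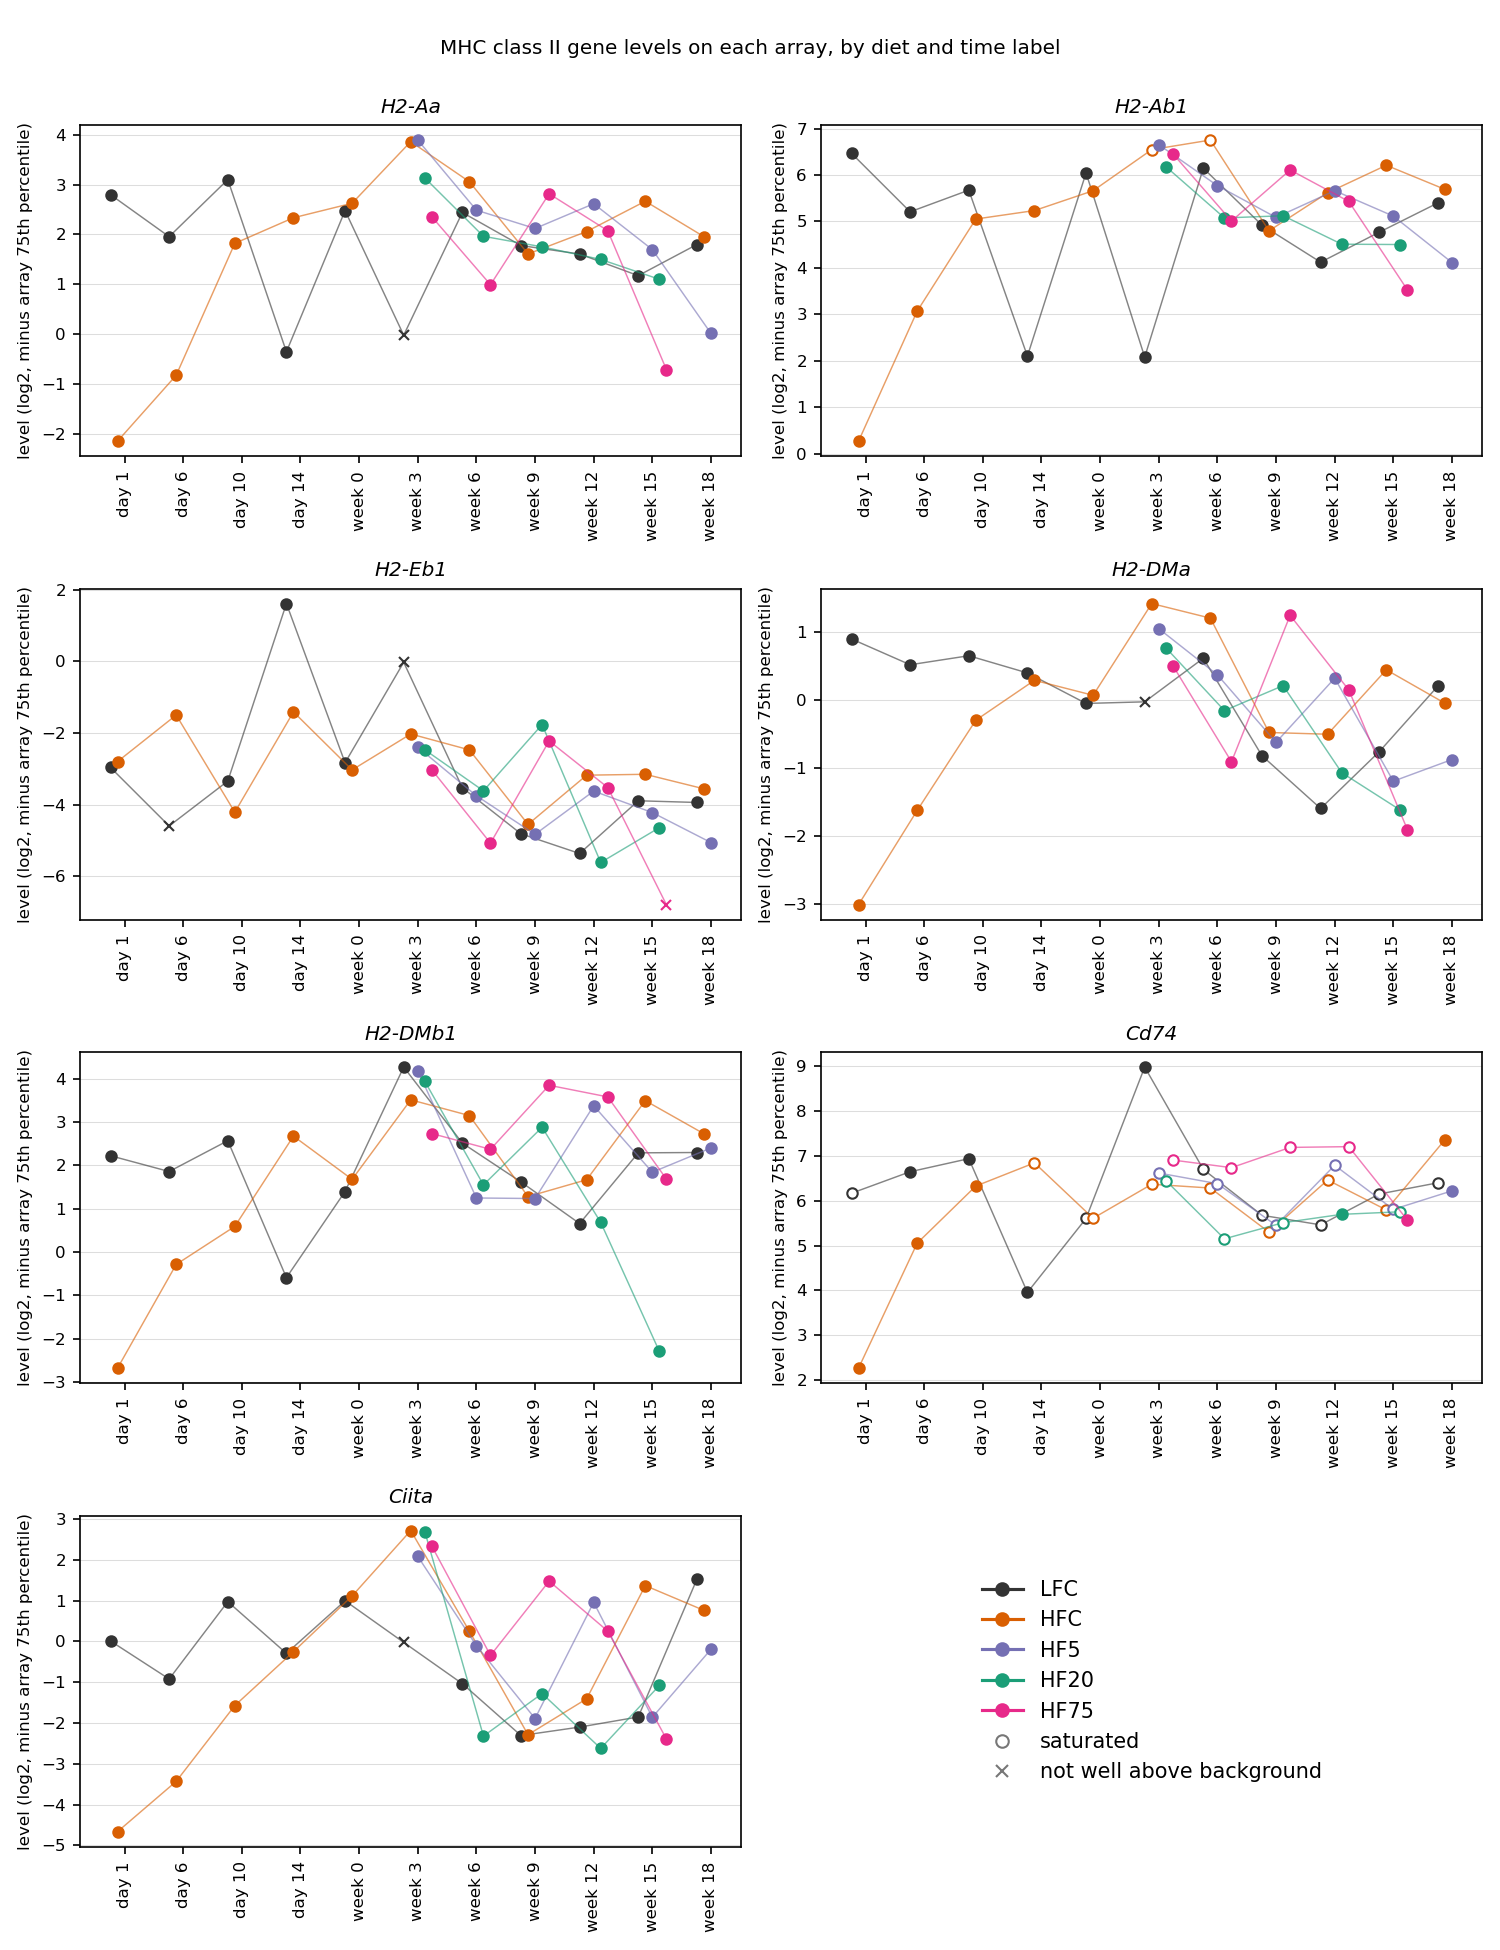
Level of each MHC class II gene on each of the 38 arrays. The x axis gives the time label, the y axis the log2 level minus the 75th percentile of the array, colours the diet, open points saturated probes and crosses levels not well above background. By the brightest probes, which are drawn, the HFC array of day 1 was the lowest for 6 genes, with H2-Ab1 at 0.27 and Ciita at -4.66. Cd74 was saturated on 27 arrays, and a Cd74 probe less often saturated was lowest in LFC.

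The first question was whether the high-fat diet alone moved class II genes. Over the 11 pairs of HFC and LFC arrays of the same time label, differences ran in both directions. H2-Aa was higher in HFC in 7 of 11 pairs (mean log2 difference 0.02 ± 0.65, SE), H2-Ab1 in 6 (0.18 ± 0.74), H2-Eb1 in 7 (0.16 ± 0.49), H2-DMa in 6 (-0.23 ± 0.46), H2-DMb1 in 6 (-0.30 ± 0.58), Cd74 in 4 (-0.46 ± 0.51) and Ciita in 7 (-0.22 ± 0.63). For Cd74 both arrays were saturated in 5 of the 11 pairs, whose order is unknown. With limma and the time label as a block, 0 of 7 genes passed the adjusted p of 0.05, and adjusted p ran from 0.941 to 0.995. Of all 29215 probes tested 0% passed, and 0 of the 7 genes had an unadjusted p under 0.05. The median difference was -0.22 for the 7 genes and -0.08 over all probes. These signs are not stable. Without the pairs of week 3 and the label day 14, H2-Aa was -0.70 and H2-Ab1 -0.63. The second Cd74 probe had a mean of 0.52 over all 11 pairs, with its largest differences at these labels (3.03 and 3.75). The other H2-Aa probe had a mean of -0.16, and the other H2-Ab1 probes -0.05 and -0.35. The last lacks the pair labelled day 14, where that probe had no LFC level.

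**Figure D2:**
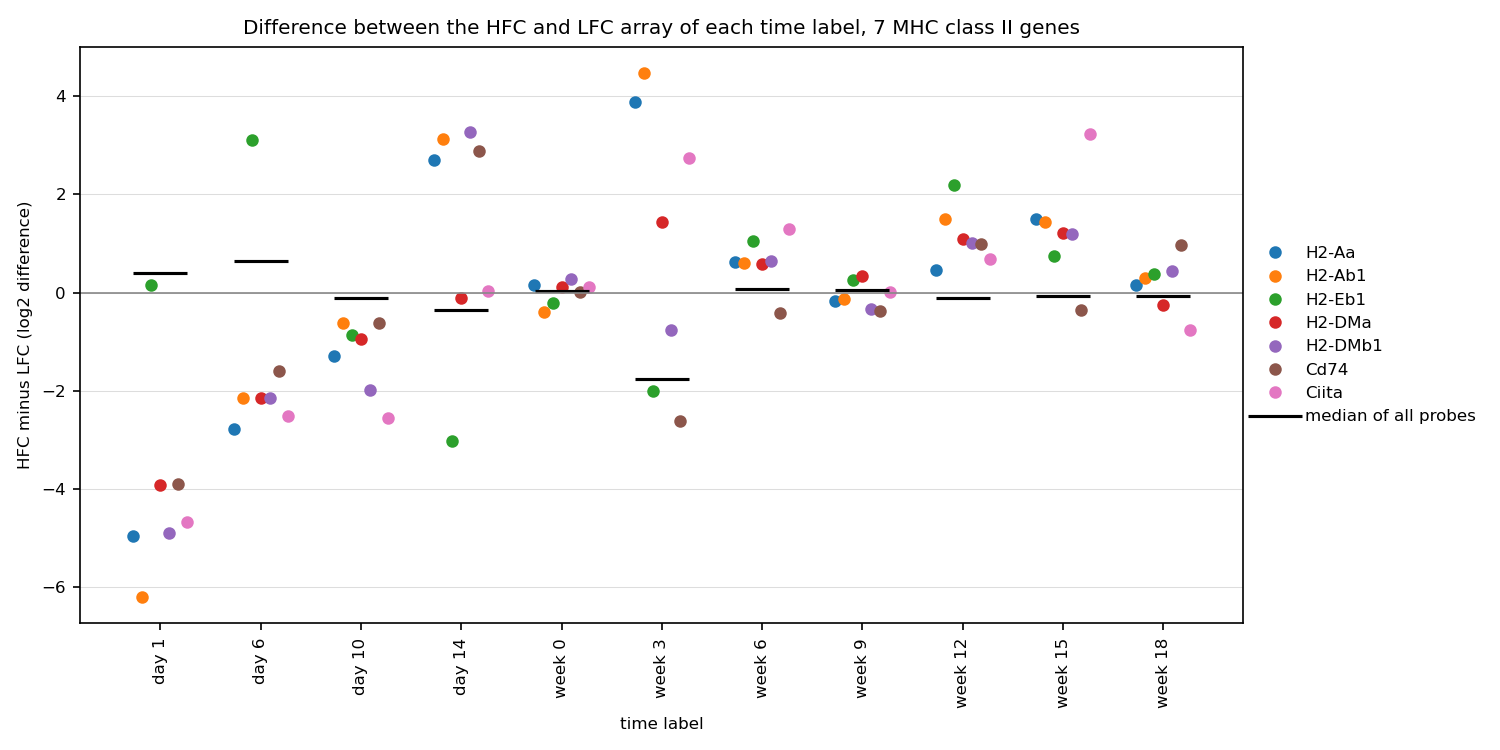
Difference between the HFC and LFC arrays of each time label for the MHC class II genes. The x axis gives the time label, the y axis the log2 difference, coloured points the 7 genes and black bars the median over all probes. The median over the 7 genes was -4.68 at day 1, -2.14 at day 6 and 1.21 at week 15.

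The mean over all time labels hides large and opposite differences at single labels, each of 1 array against 1 and without a test. At day 1, H2-Ab1 was 0.27 in HFC and 6.47 in LFC, H2-Aa -2.15 and 2.80, and Ciita -4.66 and 0.01. The log2 difference was -6.20 for H2-Ab1, -4.95 for H2-Aa, -3.92 for H2-DMa, -4.90 for H2-DMb1, -3.90 for Cd74, -4.68 for Ciita and 0.16 for H2-Eb1. So 6 of 7 genes were past 2-fold lower in HFC, against 19.3% of probes, and 0 past 2-fold higher, against 35.9%. Cd74 was saturated on the LFC array, so -3.90 is a bound on that probe. The second Cd74 probe gave 0.46, so the count of 6 holds Cd74 by its brightest probe and not by this one. Under normexp H2-Eb1 turned to -1.66, which makes 7 of 7 past 2-fold lower by brightest probes. The median over all probes was then -1.55, itself past 2-fold lower, and no share of probes was taken on that scale. Class I presentation genes had a mean level of 2.17 on the HFC array and 4.89 on the LFC array, macrophage genes -1.12 and 1.03, B cell genes -4.23 and 0.24, T cell genes -4.29 and 0.87, and lymph node stroma genes -4.85 and 2.19. Adipocyte genes went the other way, at 4.42 and 2.04. The pair was scanned on different days, and the part of these in the class II difference was not tested.

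At day 6, H2-Aa was -0.83 in HFC and 1.96 in LFC, and Ciita -3.43 and -0.92. Of the 7 genes 6 were past 2-fold lower, against 13.2% of probes, and 1 past 2-fold higher, against 40.9%. The higher gene was H2-Eb1, which was not well above background on the LFC array, and its sign turned under normexp background correction (-0.33). Macrophage genes had mean levels of 0.02 in HFC and 0.72 in LFC, and B cell genes -3.16 and -1.25. T cell genes were at -2.53 and -0.52, and lymph node stroma genes at -1.74 and 0.17. At day 10, all 7 genes were lower in HFC. H2-Aa (-1.28), H2-DMb1 (-1.98) and Ciita (-2.55) were past 2-fold lower, against 12.7% of probes, and 0 past 2-fold higher, against 10.3%. Macrophage genes were higher there in HFC, 1.70 against 0.93, while B cell genes were at -3.92 against -0.53 and T cell genes at -2.03 against 0.57. Lymph node stroma genes were at -1.78 against 1.96 and dendritic genes at -2.70 against -1.37. The part of other cells was not tested.

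The label day 14 and the label week 0 give the same day and unlike results. With the LFC array full of outlier spots, labelled day 14, 4 of 7 genes were past 2-fold higher in HFC, against 35.8% of probes, and 1 past 2-fold lower, against 43.8%. Lymph node stroma genes were at 1.06 in HFC and -1.19 in LFC, T cell genes at 0.25 and -1.485, and class I genes at 4.07 and 2.38. Macrophage genes were at 0.43 and -0.49, B cell genes at 0.00 and -0.84, and fibroblast genes at 5.04 and 2.91. The part of these cells was not tested. In the pair labelled week 0, 0 of 7 were past 2-fold higher, against 4.57% of probes, and 0 past 2-fold lower, against 1.86%. There H2-Aa was 2.63 in HFC and 2.48 in LFC, and Ciita 1.11 and 1.00.

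At week 3, with the dim LFC array, 4 genes were past 2-fold higher, against 9.85% of probes, and 2 past 2-fold lower, against 61.8%. That last share includes probes whose LFC level is a stand-in and which have no order. The all-probe median was -1.76, and 0.08 when differences without order were left out, a choice made after seeing the data. H2-Ab1, the higher gene measured on both arrays, was 6.55 in HFC, saturated, and 2.08 in LFC. H2-Eb1, 1 of the lower genes, has no order there, since its LFC level is a bound. Cd74, the other, was saturated in HFC and turned under normexp (0.34), and its second probe gave 3.03. At week 6, H2-Eb1 (1.06) and Ciita (1.29) were past 2-fold higher, against 11.6% of probes, and 0 genes lower, against 11.3%. Under normexp 0 genes were past 2-fold higher there, and under quantile normalization 1. Macrophage genes were at 2.64 in HFC and 0.85 in LFC, T cell genes at -1.20 and -3.75, dendritic genes at -1.72 and -3.08, and B cell genes at -3.55 and -4.74. Their part was not tested. At week 9, 0 genes were past 2-fold higher, against 7.66%, and 0 lower, against 7.52%.

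At weeks 12 and 15, H2-Ab1, H2-DMa, H2-DMb1 and Ciita were higher in HFC, where they had been lower at day 1. At week 12, H2-Ab1 was 5.62 in HFC and 4.12 in LFC, H2-Eb1 -3.18 and -5.37, H2-DMa -0.50 and -1.60, and H2-DMb1 1.67 and 0.66. With Cd74, 5 of 7 genes were past 2-fold higher, against 22.5% of probes, and 0 lower, against 23.6%. Cd74 was saturated on both arrays and its second probe gave 0.71, so 4 genes are past 2-fold without it. Under normexp the count at week 12 was 3 of 7, where the median over all probes was 0.98. Under quantile normalization it was 3 of 7 as well, with an all-probe median of -0.11. No share of probes was taken on either scale. At week 15, Ciita was 1.37 in HFC and -1.85 in LFC, H2-Aa 2.67 and 1.17, and H2-Ab1 6.21 and 4.77. There 5 of 7 genes were past 2-fold higher, against 7.02% of probes, and 0 lower, against 16.0%. B cell genes moved the same way, at -3.60 in HFC and -5.80 in LFC at week 12 and at -0.42 and -4.40 at week 15, and T cell genes were at 0.15 and -1.95 at week 15. Macrophage genes were at 1.11 and 0.37 at week 12 and at 1.34 and 1.14 at week 15. At week 12, T cell genes were at -2.47 and -4.54 and lymph node stroma genes at -1.98 and -4.03. Their part was not tested. At week 18, 0 genes were past 2-fold higher, against 25% of probes, and 0 lower, against 21.2%. Fibroblast genes were at 4.72 in HFC and -5.22 in LFC there, adipocyte genes at 2.38 and -6.28, and endothelial genes at 2.47 and -4.73. Macrophage genes were at 0.88 and 1.16, and B cell genes at -1.12 and -0.14. The part of these cells at week 18 was not tested.

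The scale moves these differences. Under normexp the median over all probes went from 0.40 to -1.55 at day 1, from 0.64 to -0.56 at day 6, from 0.04 to -0.90 at week 0, from 0.05 to 0.68 at week 9 and from -0.11 to 0.98 at week 12. The 7 genes then had medians of -2.98 at day 1, -1.20 at day 6 and 0.91 at week 12, the last below all probes. At week 15 their median was 1.21 under both, and all probes were at -0.07 and -0.13. Under quantile normalization the medians of the 7 genes were -4.80 at day 1 and 1.21 at week 15.

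The periods were then compared with each other. Over the 5 labels up to day 14, the mean HFC minus LFC difference was -1.92 (SD 2.02, n = 5 pairs) for Ciita and -1.40 (SD 1.66) for H2-DMa. Over the 6 labels from week 3, it was 1.20 (SD 1.55) for Ciita and 0.74 (SD 0.63) for H2-DMa. Ciita and H2-DMa were each higher in HFC in 5 of 6 late pairs. By the limma interaction of diet with period, the late difference exceeded the early one for all 7 genes (median 2.14, against -0.50 over all probes), from 0.34 for Cd74 (0.44 on its second probe) to 3.12 for Ciita. T cell genes had a median of 3.82, B cell genes 3.48 and lymph node stroma genes 3.47, and their part was not tested. The sign turned for H2-Eb1 when the label day 14 was left out (-0.11), and for Cd74 when day 1 was left out (-0.47). Of the 7 genes 0 passed, as did 0% of the 29215 probes, with adjusted p from 0.808 to 0.936, and 2 (Ciita and H2-DMa) had an unadjusted p under 0.05, against 4.24% of probes. Under normexp the all-probe median was 0.69, and 4307 probes and 1 of the 7 genes passed.

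Late and early arrays of both diets were compared as well. H2-DMb1 had a mean level of 2.45 from week 3 on and 0.94 before (difference 1.51 ± 0.66, SE). Differences of the 7 genes ran from -0.87 for H2-Eb1 to 1.51, with a median of 0.62, against -0.01 over all probes. Cd74 differed by 0.87, and by 1.35 on its second probe. In limma with the time label as a random block (correlation 0.205), 0 of 7 passed, as did 0% of 30259 probes. The lowest adjusted p was 1.00, and 1 gene, H2-DMb1, had an unadjusted p under 0.05, against 2.79% of probes. Leaving out 1 label moved H2-Eb1 between -1.34 and -0.22. List medians were -2.28 for adipocyte, -1.41 for lymph node stroma, -1.36 for endothelial, -1.16 for B cell and 0.45 for macrophage genes, and their part was not tested. The all-probe median was 0.25 under quantile normalization and -0.21 under normexp.

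The Kal-1 doses were compared with HFC arrays of the same weeks, which the 3 comparisons share. With 5 µg, 6 pairs, H2-Eb1 was lower than in HFC in 6 of 6 pairs. Its HF5 levels were -2.40, -3.75, -4.83, -3.62, -4.22 and -5.06 from week 3 to week 18, and its HFC levels -2.03, -2.47, -4.55, -3.18, -3.15 and -3.56. The levels overlapped, and the mean difference was -0.82 ± 0.23 (SE, limma adjusted p = 0.906). An exact sign-flip permutation test gave 0.0312, unadjusted, the smallest that 6 pairs can give. All 7 genes had a mean below HFC in the main scale (median -0.40, against 0.00 over all probes), with Cd74 at -0.05 (-0.13 on its second probe). With 1 week left out, the mean turned to as high as 0.16 for Ciita, 0.07 for H2-DMb1 and 0.17 for Cd74. That of H2-Aa then lay between -0.59 and -0.09. By the brightest Cd74 probe both arrays were saturated in 5 of 6 pairs, so their order is unknown, and the mean turned to 0.19 under normexp and 0.09 under quantile normalization. Other lists were low as well, with medians of -0.42 for macrophage, -0.52 for B cell, -0.45 for T cell, -0.46 for lymph node stroma, -0.44 for fibroblast and -0.58 for adipocyte genes. By limma 0 of 7 passed, against 0% of 29200 probes, and 1 had an unadjusted p under 0.05, against 5.16% of probes. Normexp moved the all-probe median to -0.30.

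With 20 µg, 5 pairs, H2-Aa was lower than in HFC in 4 of 5 pairs (mean -0.76 ± 0.29, SE) and H2-Ab1 in 4 (-0.91 ± 0.36), the limma adjusted p being 0.406 for both. HFC levels at the same weeks were 3.87, 3.06, 1.61, 2.06 and 2.67 for H2-Aa. HFC levels of H2-Ab1 were 6.55, 6.75, 4.80, 5.62 and 6.21. The exception for both genes was week 9, and the diets overlapped. The other H2-Aa probe (1.24) and 1 of the 2 other H2-Ab1 probes (0.50) were higher in HF20 at week 3 too, so they were lower in 3 of 5 pairs, while the remaining H2-Ab1 probe (-0.43) was lower in 4. The other means were -0.55 for H2-Eb1, -0.79 for H2-DMa, -1.27 for H2-DMb1, -0.33 for Cd74 (-0.89 on its second probe) and -1.05 for Ciita, so all 7 were negative (median -0.79, against 0.08 over all probes). For Cd74 both arrays were saturated in 4 of the 5 pairs. Leaving out 1 week moved H2-DMb1 between -1.98 and -0.14 and H2-Eb1 between -1.38 and -0.07, and H2-DMb1 differed by -5.78 at week 15 alone. In the same way H2-DMa ran from -1.16 to -0.47, Ciita from -1.57 to -0.67 and Cd74 from -0.46 to -0.13. By limma 0 of 7 passed, against 0% of 30831 probes, and 2 had an unadjusted p under 0.05, against 11.8% of probes. The exact sign-flip permutation test gave 0.125 for both, and 5 pairs cannot go below 0.0625. The HF20 array of week 3 was scanned on another day than HFC, and without that pair 0 of 32675 probes passed. Normexp moved the all-probe median to -0.39. T cell genes had a median difference of -1.75, lymph node stroma genes -1.51, B cell genes -1.27, dendritic genes -0.38, macrophage genes -0.48 and adipocyte genes 2.09. Their part was not tested.

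With 75 µg, 5 pairs, H2-Aa was 2.36, 0.99, 2.82, 2.08 and -0.71 against the same HFC levels (mean difference -1.15 ± 0.64, SE, lower in 3 of 5 pairs). With 1 week left out, this mean lay between -1.74 and -0.59. All 7 genes were higher than HFC at week 9 and lower at week 15, Cd74 also by its second probe. Ciita differed by 3.77 at week 9 and by -3.76 at week 15. B cell genes stood at 0.60 in HF75 and -5.49 in HFC at week 9, and at -5.49 and -0.42 at week 15. T cell genes stood at 1.09 and -3.50 at week 9, and at -3.72 and 0.15 at week 15. Lymph node stroma genes stood at 1.02 and -4.22, and at -2.29 and 0.90. Over the 5 pairs list medians were -0.96 for macrophage, -0.51 for dendritic, 0.29 for B cell, 0.03 for T cell and 0.68 for lymph node stroma genes. The part of these cells was not tested. Mean differences ran from -1.15 for H2-Aa to 0.68 for Cd74 (median -0.60, against -0.01 over all probes). For Cd74 both arrays were saturated in 4 of the 5 pairs and 1 array in the fifth, so 0.68 is not a measured size. The second Cd74 probe gave -0.25, and Ciita's mean, 0.14, turned to -0.01 under normexp. By limma 0 of 7 passed, with adjusted p from 0.416 to 0.969, against 1.01% of probes (234 higher and 59 lower). At an unadjusted p under 0.05 there were 0 of 7, against 14.6% of probes. Without week 3, 0 of all probes passed, without week 6, 8, without week 9, 207, without week 12, 92, and without week 15, 35. The HF75 arrays of weeks 3, 6 and 9 were scanned on another day than HFC, and the 2 pairs scanned on the same day, where 0 probes passed, are too few to test it. Normexp moved the all-probe median to -0.23.

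All 5 diets were also compared at weeks 3 to 15, 25 arrays. The widest gap between diet means was 1.73 for Ciita, from -1.46 in LFC to 0.27 in HF75, and the narrowest 0.94 for H2-DMa. The LFC means of both genes hold the week 3 stand-in of -0.02. They are therefore upper bounds, and these gaps are not measured sizes. For H2-Ab1 the means were 5.98 in HFC, 5.66 in HF5, 5.31 in HF75, 5.08 in HF20 and 4.41 in LFC. Neighbours in this order lay within their spread (SD 0.79, 0.64, 1.15, 0.68 and 1.49). The LFC mean holds the dim week 3 array (2.08), and the HFC mean 2 saturated levels, which are lower bounds. Without week 3 the lowest mean was that of HF20, and the gap between highest and lowest was then 1.04. In the limma F test 0 of 7 passed, against 0% of 27956 probes, with adjusted p from 0.494 to 0.860. At an unadjusted p under 0.05 there were 0 of 7, against 11.7% of probes.

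Over weeks 3 to 15, 1 of the 7 genes passed the test, a share below that of all probes. Ciita, the transactivator, was highest at week 3, where the levels were 2.72 in HFC, 2.09 in HF5, 2.69 in HF20 and 2.34 in HF75, with LFC not measurable and set to -0.02. At week 6 Ciita was 0.25, -0.10, -2.32 and -0.34 in these 4 diets and -1.04 in LFC. At weeks 9, 12 and 15 it was between -2.62 and 1.48. In those 4 diets every week 3 level lay above every later one up to week 15.

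Ciita's mean over the 5 diets was 1.96 (SD 1.14, n = 5) at week 3, -0.71 (SD 1.02) at week 6, -1.26 (SD 1.59) at week 9, -0.98 (SD 1.53) at week 12 and -1.16 (SD 1.49) at week 15. Its range of 3.22 passed the limma F test over weeks (adjusted p = 0.0260). So 1 of 7 genes passed, against 16.7% of probes, and 3 had an unadjusted p under 0.05, against 37.3% of probes, among them H2-DMa (range 1.75, adjusted p = 0.0763) and H2-Eb1 (range 2.55, adjusted p = 0.110). H2-DMa means went from 0.75 at week 3 to -1.01 at week 15, and H2-Eb1 means from -1.99 to -4.54. The week 3 means of both genes hold the LFC stand-in of -0.02, an upper bound. For H2-Eb1 it lies above the highest measured week 3 level, -2.03, so its range is not a measured size. Ciita no longer passed without week 3, where its range was 0.55, nor without week 6, where its range was still 3.22 and 0 of all probes passed. Without week 9, 3 of the 7 passed, beside 3249 of 28108 probes. Under normexp 3 of the 7 passed too, beside 16508 of 27956 probes. No scan day holds more than 1 time label, so sampling time and scan day cannot be told apart.

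Markers of other cells moved with week 3. Means of the B cell list were 0.73 at week 3 and -4.50, -3.79, -2.88 and -3.64 at weeks 6 to 15, and of the T cell list 0.46, -2.99, -2.14, -2.31 and -2.07. The lymph node stroma list, with the high endothelial gene Glycam1, was at 1.41 at week 3 and -3.29 at week 6. Among the B cell genes tested, 5 of 5 passed the F test over weeks, led by Ms4a1 (CD20), with a range of 7.29. The macrophage list went the other way, at 0.42 at week 3 and 1.47 at week 6. On the dim LFC array of week 3, 2 of 7 B cell, 1 of 6 T cell, 3 of 5 lymph node stroma and 0 of 8 macrophage genes cleared background. Its means, 1.55 for the B cell and 3.22 for the lymph node stroma list, were the highest of that week and hold stand-in levels. The week 3 means are therefore upper bounds. The part of these cells in the Ciita result was not tested.

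**Figure D3:**
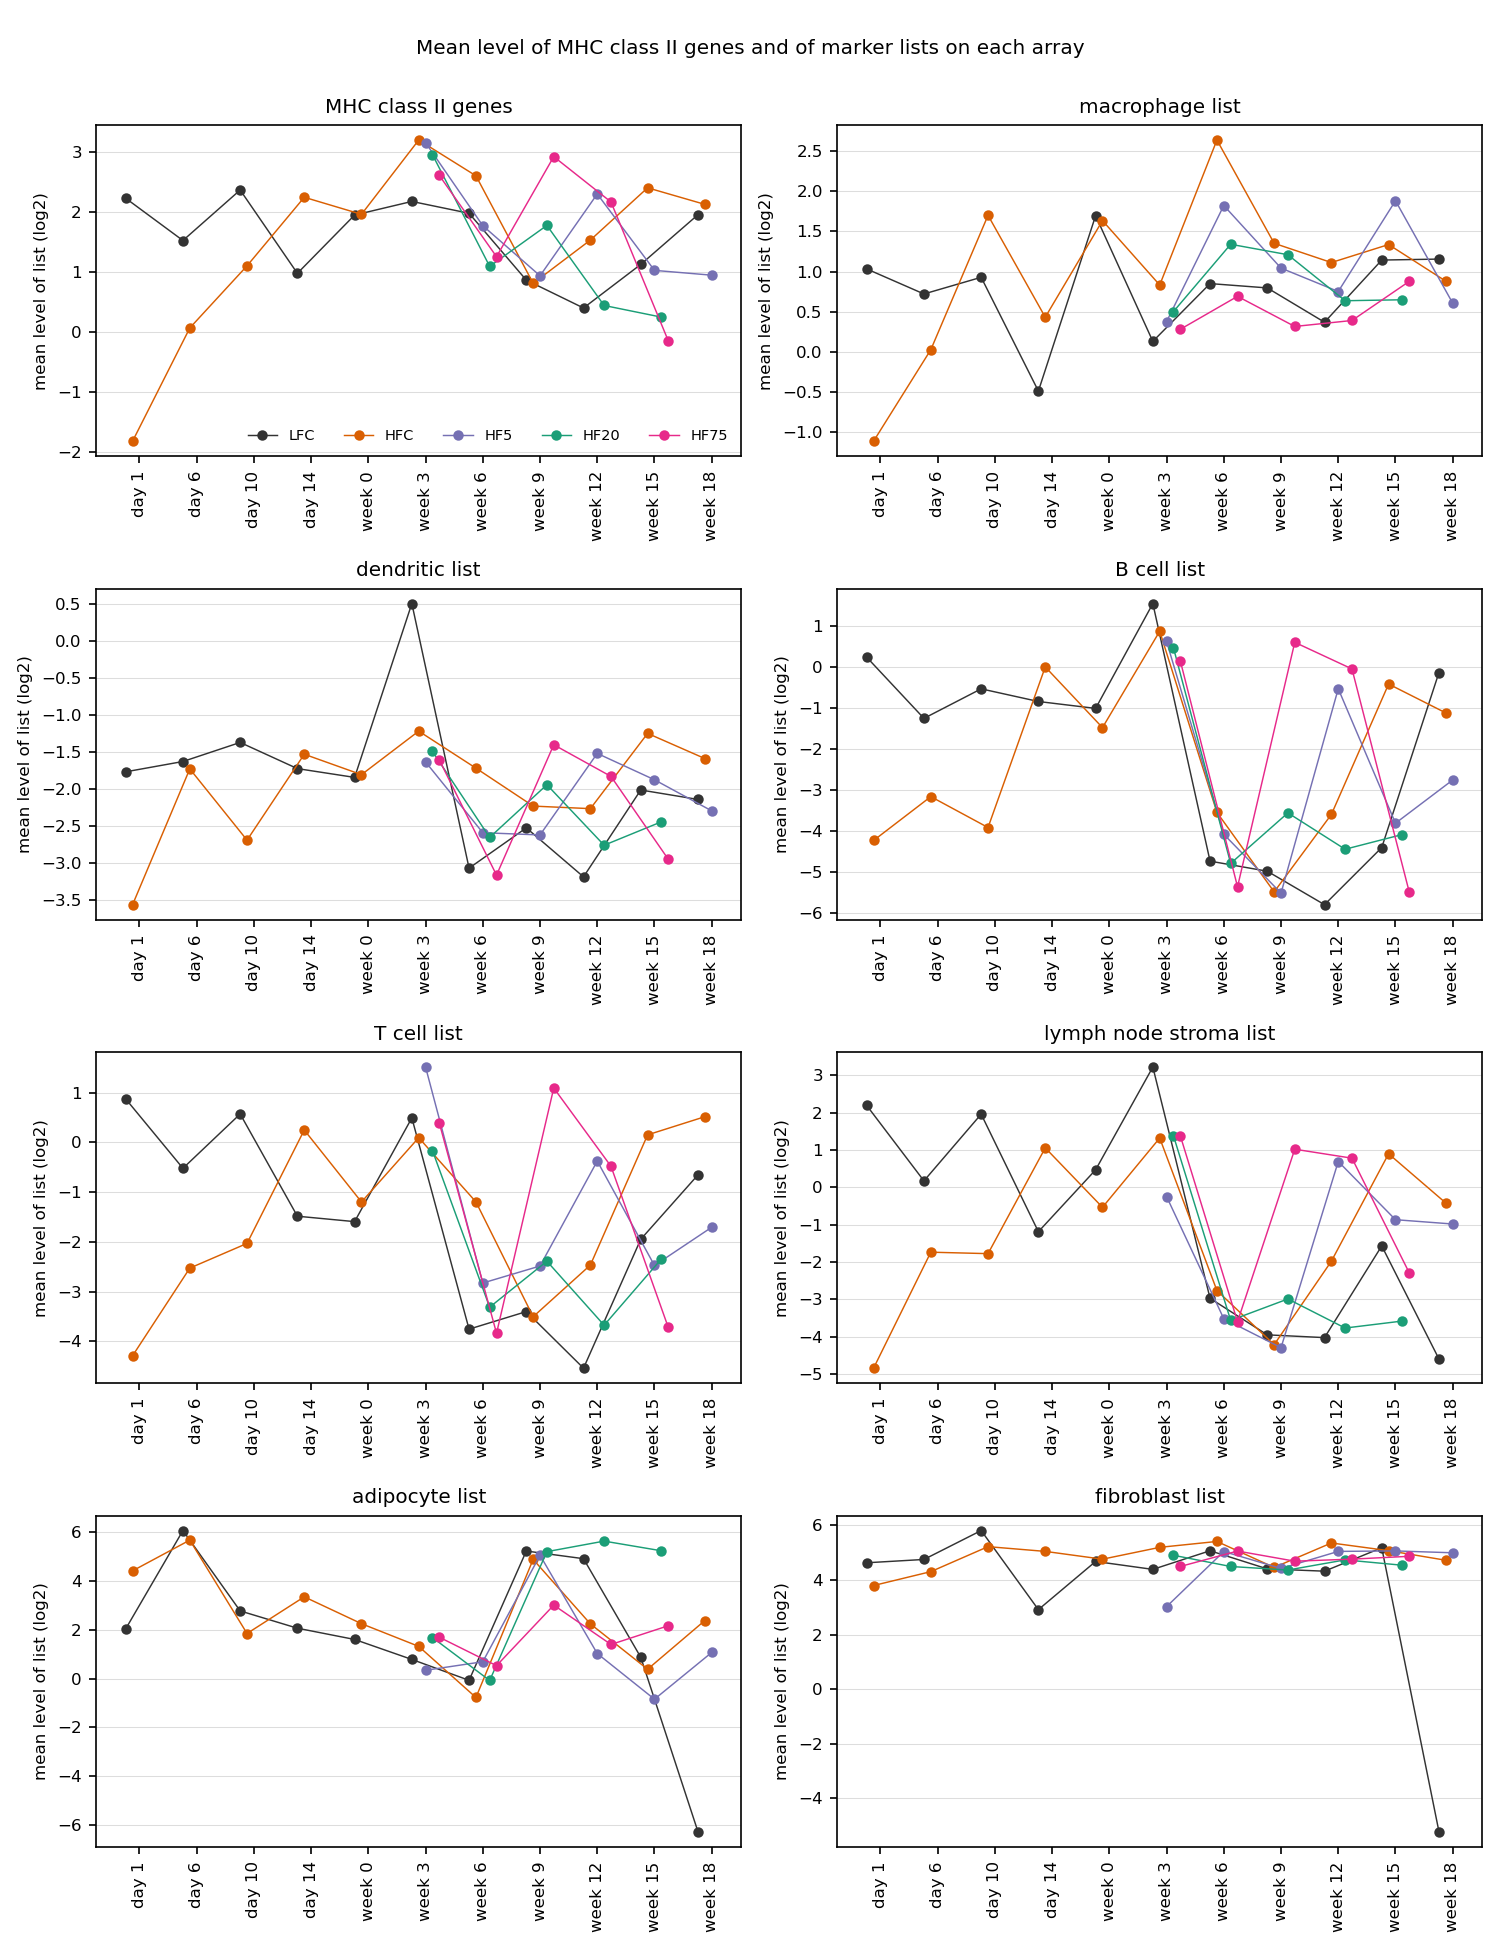
Mean level of the MHC class II genes and of 7 marker lists on each array. The x axis gives the time label, the y axis the mean log2 level of the genes of a list, and colours the diet. The B cell list had a mean of 0.73 over the 5 arrays of week 3 and -4.50 at week 6, the class II genes 2.82 and 1.74. The week 3 means hold stand-in levels of the dim LFC array.

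Other genes of the pathway were listed by role, 33 in all, of which 31 had a probe. The other class II chains were H2-Ea, H2-Eb2, H2-DMb2, H2-Oa and H2-Ob, the last pair forming DO, an inhibitor of DM. H2-Ea was well above background on 15 of 38 arrays and H2-Eb2 on 17. In HFC against LFC, 0 of 31 pathway genes passed limma, with 1 at an unadjusted p under 0.05 (Lgmn, an endosomal protease, 0.69 ± 0.31), against 2.81% of probes, and their median was 0.07. With 5 µg, 0 of 31 passed and 1 had an unadjusted p under 0.05, Ifng, the interferon itself, at -1.10 ± 0.36 (median of the list -0.28), against 5.16% of probes. With 20 µg, 0 of 30 passed, and 3 had an unadjusted p under 0.05, against 11.8% of probes. They were H2-DMb2 (-0.92), Cd86, a costimulator (-0.97), and Marchf1, which marks class II for turnover (-0.93). The list's median there was -0.71, against 0.08 over all probes. With 75 µg, 0 of 31 passed, 1 had an unadjusted p under 0.05 (Ctsb, a cathepsin, -0.59), against 14.6% of probes, and the median was 0.01. Over all diets 0 of 29 passed, with 1 at an unadjusted p under 0.05, against 11.7% of probes. In late against early arrays 0 of 31 passed and 0 had an unadjusted p under 0.05, against 2.79%, and in the late minus early HFC effect 0 passed and 4 had one, against 4.24%.

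Over weeks 3 to 15, 7 of 29 pathway genes passed, against 16.7% of probes, and 19 had an unadjusted p under 0.05, against 37.3%. Promoter-bound factors were Nfyb, a subunit of the CCAAT factor, with a mean of 3.49 at week 3 and 1.85 at week 6, and Creb1, with 1.64 and 0.39. On the interferon route Ifngr1, the receptor, was at 5.85 and 4.30. The cathepsin Ctss, which trims the invariant chain, was at 5.44 at week 3 and 3.79 at week 12, and the costimulator Cd40 at 0.17 and -1.99. Lgmn went the other way, at 1.88 at week 3 and 3.52 at week 15. For Lgmn and Cd40 the lowest week 3 level, -0.02, is the stand-in of the dim LFC array. The median range was 1.63 for the list and 1.26 over all probes.

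Class I presentation genes, 8 with a probe, were set beside them. In each diet comparison with HFC or LFC 0 of 8 passed limma, with 1 gene, H2-K1 with 75 µg (0.81 ± 0.28), at an unadjusted p under 0.05, against 14.6% of probes. Medians were 0.04 in HFC against LFC, -0.14 with 5 µg, -0.11 with 20 µg and -0.16 with 75 µg. Over weeks, 1 of 8 passed, against 16.7% of probes, the peptide transporter Tap1, with 5.59 at week 3 and 3.40 at week 6.

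The cell type lists gave 0 genes past the limma threshold in every comparison with HFC or LFC as control. At an unadjusted p under 0.05, HFC against LFC had 1 of 8 macrophage, 0 of 8 dendritic, 0 of 7 B cell, 1 of 6 T cell, 0 of 5 lymph node stroma, 0 of 6 adipocyte, 1 of 6 fibroblast and 1 of 5 endothelial genes. With 5 µg these counts were 3, 2, 0, 0, 0, 1, 1 and 0 in the same order, with 20 µg 3, 3, 0, 2, 2, 2, 2 and 0, and with 75 µg 4, 1, 0, 0, 1, 1, 4 and 0. Over all probes the shares were 2.81% in HFC against LFC, 5.16% with 5 µg, 11.8% with 20 µg and 14.6% with 75 µg. With 75 µg the macrophage median was -0.96, with Csf1r at -1.71. Over weeks, 3 of 8 macrophage, 1 of 8 dendritic, 1 of 6 T cell, 3 of 5 lymph node stroma, 6 of 6 adipocyte, 1 of 6 fibroblast and 0 of 5 endothelial genes passed, against 16.7% of probes.

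Which genes ran most alongside the class II genes was measured over 36 arrays, without the LFC pair that stands apart, as a description. These arrays share diets and weeks, and no p is given. Of 28302 probes ranked, the median Pearson r with the mean of the 7 genes was -0.03. The highest was H2-DMb2, the second DM beta chain (r = 0.945, Spearman rho = 0.925). Its probe also lists the accession of H2-DMb1 and may read both. Next came Cd72, a B cell co-receptor (r = 0.933, rho = 0.936), LOC639316 (0.925 and 0.921), Blnk, an adaptor of the B cell receptor (0.918 and 0.910), and the chemokine Ccl5 (0.915 and 0.915).

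Ly86, a partner of the receptor RP105 (r = 0.913, rho = 0.884), A530040E14Rik (0.911 and 0.879), the interleukin-10 receptor gene Il10ra (0.910 and 0.871), Wdfy4, needed for cross-presentation (0.903 and 0.892), and Marchf1 (0.899 and 0.873) completed the 10. With all 38 arrays their r ran from 0.848 to 0.933. Among the lists, mean levels had r of 0.849 for the pathway, 0.794 for T cells, 0.755 for dendritic cells, 0.743 for B cells, 0.676 for lymph node stroma, 0.593 for class I, 0.318 for macrophages, 0.00859 for fibroblasts, -0.204 for endothelium and -0.419 for adipocytes. By rho, fibroblasts (0.334) stood above macrophages (0.00978), so the order of these lists depends on the coefficient.

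The promoters were searched for boxes of this gene family. RefSeq promoters (GRCm38.p6) were matched for 4 of the 7 members, H2-Aa, H2-Eb1, H2-DMa and H2-DMb1, and not for H2-Ab1, Cd74 and Ciita. The motifs were AACNGATG (X box core), TGACGTCA (CRE core), CTGATTGG (Y box) and the last 6 letters of the Y box (CCAAT core), searched on both strands of the 250 bases before the start. Of 32851 promoters of that length, 1.98% hold the X box core, 1.55% the CRE core, 3.83% the Y box and 14.6% the CCAAT core, and 0.250% the X box core and the CCAAT core together. H2-Eb1 has the X box core 89 to 82 bases before the start and the Y box 62 to 55 before it, and a CCAAT core on the other strand at 35 to 30. H2-DMb1 has the X box core at 92 to 85 and the CCAAT core at 62 to 57. H2-DMb2 has them at 121 to 114 and 91 to 86. H2-Aa has the CRE core at 74 to 67 and the Y box at 51 to 44. H2-DMa has none of the X box core, CRE core or Y box, and a CCAAT core at 199 to 194 before 1 of its starts. The windows of 3 members with such a box, and of H2-DMb2, are shown 5′ to 3′. They are at chr17:34287824-34288073 on the minus strand for H2-Aa, and on the plus strand at chr17:34305617-34305866 for H2-Eb1, chr17:34152941-34153190 for H2-DMb1 and chr17:34144999-34145248 for H2-DMb2. A match is a description of letters, not a tested site.
H2-Aa: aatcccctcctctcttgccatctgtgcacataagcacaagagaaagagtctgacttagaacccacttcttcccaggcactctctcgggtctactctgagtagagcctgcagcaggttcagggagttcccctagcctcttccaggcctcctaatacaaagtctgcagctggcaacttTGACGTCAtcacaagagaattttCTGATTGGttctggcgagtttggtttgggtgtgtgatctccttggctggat
H2-Eb1: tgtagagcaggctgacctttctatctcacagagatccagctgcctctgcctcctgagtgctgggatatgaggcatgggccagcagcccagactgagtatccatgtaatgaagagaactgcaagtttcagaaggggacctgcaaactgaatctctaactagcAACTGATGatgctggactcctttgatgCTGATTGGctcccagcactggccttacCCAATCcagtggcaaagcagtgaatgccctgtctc
H2-DMb1: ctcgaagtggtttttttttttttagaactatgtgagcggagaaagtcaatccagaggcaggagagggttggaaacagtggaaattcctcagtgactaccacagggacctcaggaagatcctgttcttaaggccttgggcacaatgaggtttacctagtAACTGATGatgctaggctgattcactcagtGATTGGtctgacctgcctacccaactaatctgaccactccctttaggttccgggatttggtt
H2-DMb2: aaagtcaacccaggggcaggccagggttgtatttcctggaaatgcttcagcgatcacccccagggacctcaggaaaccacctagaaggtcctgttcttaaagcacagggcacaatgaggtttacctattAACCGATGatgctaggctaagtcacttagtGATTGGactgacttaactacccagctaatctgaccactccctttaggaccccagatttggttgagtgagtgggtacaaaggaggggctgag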

How the data were processed

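The authors deposited 1-colour intensities. Feature Extraction 10.5.1.1, named in the file headers, had subtracted background and removed spatial trends within each array, with no normalization between arrays. The deposited quality columns hold other values, flags of 0 or 1. The deposited table holds 40 columns of the authors' log2 fold changes against LFC, which were not used, and its text columns named the probes. For 38 of 40 arrays, the 75th percentile of each array was taken off its log2 intensities, and outlier spots were dropped. Probes with fewer than 50% of their spots clear of background took the smallest level on that array that was clear of it. The median ratio of signal to background was 4.86, from 1.53 to 55.4.

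Comparisons were fitted in limma (version 3.58.1, R 4.3.3) and blocked by time label. Late against early took it as a random block, and the test over weeks was blocked by diet. Probes entered when clear of background on 50% or more of the arrays in 1 of the groups (of all 25 arrays in the tests over diets and weeks), with Benjamini-Hochberg adjusted p under 0.05 over all probes tested. Single labels were called past 2-fold among probes clear of background on 1 or both arrays. limma was tested on simulated data. Tables came from SciPy 1.17.1, pandas 2.3.3 and NumPy 2.4.6 under Python 3.11.15.

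Named genes were the 7 members, the lists for the pathway, class I and cell types, and the 10 genes most like the members' mean. Single markers given from the cell type lists were chosen after their values were seen. Members and lists were chosen with earlier results of these data known. Marchf1 and Clec10a were matched by accession, and Ccl21a and H2-Ea-ps had no probe. Alternatives were quantile normalization, normexp (offset 50), dropping the filter, leaving dim levels as they were, the mean of a gene's probes, no replicate block, the slide as a block or values within slides, week 3 and the label day 14 or week 9 left out, each time label left out in turn, and a sign-flip permutation test. Pairs scanned on the same day, the least saturated probe, and differences without order left out were chosen after seeing the data.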

Additional observations from a re-analysis of the deposited data

Results flagged for a closer look

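Cd74 on the HF75 array of week 15 lay far from the other HF75 arrays, at 5.57 against 6.74 to 7.21 (n = 5). Its gap to the nearest array was 0.714 of the whole range, above the critical value of Dixon's test. Of 21 groups tested this was 1, and chance gives 1.05. The Cd74 probe was saturated on the other 4 HF75 arrays and not on this one. Saturation narrows the spread of those 4, so the ratio is not a measure of how far this array lay. On the Cd74 probe without saturation here, its level was 3.09 against 4.67 to 6.63, and no outlier test was made.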

How the results depend on the processing

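Of the counts and main values recomputed, 315 kept their direction and side of the threshold and 33 moved. Of the values of single genes, 1156 kept both, 7 passed only under the alternative, 5 no longer passed, 19 moved and 49 turned sign. The cause was not tested for any of these, except where fewer arrays or other probes entered by construction. By limma 0 of 7 class II genes passed in HFC against LFC and in each Kal-1 comparison under every alternative run, and the counts at an unadjusted p under 0.05 in the main scale were 0, 1, 2 and 0.

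In HFC against LFC, the mean of probes turned H2-Aa to -0.0668 and H2-Ab1 to -0.0414. Without week 3 and the label day 14 they were -0.70 and -0.63. The least saturated probe, chosen after seeing the data, gave -0.0536 for H2-Ab1 and 0.52 for Cd74. Normexp gave -0.12 for H2-Eb1, 0.20 for H2-DMb1 and 0.0372 for Ciita, and quantile normalization -0.18 for H2-Eb1. Pairs scanned on the same day, chosen after seeing the data, leave out day 1 and gave 0.13 for H2-DMa, 0.16 for H2-DMb1 and 0.23 for Ciita. Within slides that hold both diets Ciita was 0.0925. HF20 and HF75 share no slide with HFC, so they have no such value.

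Leaving out 1 time label at a time gave -0.36 to 0.52 for H2-Aa and -0.25 to 0.82 for H2-Ab1 (lowest without week 3), -0.13 to 0.48 for H2-Eb1 (lowest without day 6), and, highest without day 1, -0.40 to 0.13 for H2-DMa, -0.66 to 0.16 for H2-DMb1 and -0.56 to 0.23 for Ciita. With 5 µg the ranges were -0.65 to 0.0709 for H2-DMb1, highest without week 6, -0.13 to 0.17 for Cd74, highest without week 18, and -0.95 to 0.16 for Ciita, highest without week 15. Cd74 was 0.19 under normexp and 0.0946 under quantile normalization.

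With 75 µg, 293 probes passed. Without the filter 145 did, without the replicate block 1, on the 2 pairs scanned on the same day, too few for a test, 0, without week 3 0, and 0 to 207 with 1 week left out at a time. H2-DMb1 was -0.36 without week 9 (range -0.36 to 0.73), and the least saturated Cd74 probe gave -0.25. Ciita was -0.00507 under normexp, -1.05 on pairs scanned on the same day and -0.77 without week 9 (range -0.77 to 1.11).

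Over weeks 3 to 15, normexp gave 3 class II genes and 16508 of 27956 probes. The mean of probes gave 3103 of 20064 values, 1 per gene. Without week 3, 0 class II genes and 4509 of 28700 probes passed, and without week 9, 3 genes and 3249 of 28108 probes. With 1 week left out at a time, 0 to 3 class II genes and 0 to 5719 probes passed, the lowest for both without week 6. In late against early arrays 1 probe passed without the replicate block, and H2-DMa ran over -0.0231 to 0.39, lowest without day 1. In the interaction, normexp gave 1 class II gene and 4307 probes. H2-Eb1 ran over -0.11 to 1.42, lowest without the label day 14, and Cd74 over -0.47 to 1.23, lowest without day 1.

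At single labels, normexp gave 0 genes past 2-fold higher at day 6 (H2-Eb1 -0.33), 0 at week 6, 1 at week 9 and 3 at week 12. Past 2-fold lower it gave 7 at day 1 (H2-Eb1 -1.66), 1 at week 0, 0 at week 3 (Cd74 0.34) and 1 at week 18. All-probe medians under normexp were -1.55 at day 1, -0.90 at week 0, 0.68 at week 9 and 0.98 at week 12. The main-scale shares of probes therefore do not apply to these counts. Quantile normalization gave 2 higher at the label day 14, 1 at week 6 and 3 at week 12, and 1 lower at week 3. Week 3 also had 1 lower when levels were not raised, and 1 when differences without order were left out, a choice made after seeing the data. The median signal over background, 4.86, limits what dim arrays such as LFC week 3 (1.53) can show.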

Other observations

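The 2 arrays of week 18 with conflicting labels belong to no group. On unassigned array 1 the levels were -0.55 for H2-Aa, 1.99 for H2-Ab1, 1.26 for H2-Eb1, 0.40 for H2-DMa, -0.47 for H2-DMb1, 4.27 for Cd74 and -0.31 for Ciita. It had 21710 outlier spots and a rank correlation with the 38 arrays of 0.464. Cd74 was saturated there. On unassigned array 2 the levels were 1.85 for H2-Aa, 5.03 for H2-Ab1, -4.27 for H2-Eb1, -1.13 for H2-DMa, -0.26 for H2-DMb1, 6.61 for Cd74 and -2.44 for Ciita. It had 52 outlier spots and a rank correlation with the 38 arrays of 0.932.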
